A study of Sus scrofa with 37 samples.

Results

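Contused skeletal muscle taken 4 h after injury was compared with control muscle by RNA sequencing of bulk tissue from Bama minipigs, a small breed of pig. The samples were chosen by their titles: the 4 libraries titled as injured at 4 h and the 9 titled as controls, 13 of the 37 libraries of a time course that continued to 48 h. The muscle at 4 h held more RNA of CCL2, IL6 and CSF1, of the receptors and feedback genes of interleukin-6-type signalling (OSMR, IL6R, STAT3 and SOCS3), of the plasminogen activator PLAU, and of the stretch and repair genes ANKRD1, XIRP1, S100A10 and ANXA1, while no neutrophil marker in the table was called. Most of these genes were highest in the same 2 of the 4 injured libraries. A second set of differences, in the lists of fibre type and fatty acid genes, was called against all controls together and not against 3 of them. These 3 resemble the injured libraries in the positional genes HOXC8 and HOXC9, though not in HOXA10.

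The design text describes contusion of skeletal muscle in 8 minipigs, with 4 biological replicates at each of 7 times. The age and sex of the animals, the muscle, the force of the blow and which animal gave which library are not stated in the labels or the design text. With 8 animals and 37 libraries some must share an animal, so the p-values below measure the spread between libraries and not between animals. All 37 libraries carry the same treatment label, mechanical damage, also on the controls, and no source used here describes the handling of the control muscle. Both groups are the same breed and tissue, and the sources name no genetic change or drug.

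A contusion is a blunt blow that crushes fibres and small vessels without opening the skin. Torn fibre membranes let calcium in and cell contents out, annexins and their S100 partners gather at the tear to seal it, and resident cells of the tissue release chemokines and interleukin-6 before blood leukocytes arrive. Interleukin-6-type cytokines act through STAT3, which induces its own inhibitor SOCS3. Neutrophils are the earliest blood leukocytes to enter injured muscle in numbers, followed by monocytes and macrophages, and stem cells of the muscle (satellite cells) divide later to rebuild fibres.

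Raw counts were deposited for 9418 genes, a selection of each library, and the tests covered 9411 of them. The controls had column totals of 10.3 to 12.3 M and the 4 h libraries of 10.9 to 21.5 M, replicate 3 being the deepest. In these 13 libraries 3 counts, the limit that a count of 0 allows, correspond to 0.175 to 0.369 CPM (counts of a gene per M counts of the library). Libraries of the series fall into 5 sets by column total and by 3 genes (C1QBP, NDUFAF8 and ND6), with no label that names them. At 4 h, 3 libraries were in set 2 and 1 in set 3, and no control was in either. The 9 controls were in sets 1, 4 and 5, so among these 13 libraries set and injury cannot be told apart.

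The controls also differed among themselves. HOXC8, a homeobox gene whose expression marks position along the body, was at 15.4 to 39.4 CPM in controls 5, 6 and 7 and at 0.393 to 1.92 CPM in the other 6. At 4 h it was at 25.1, 14.6, 21.5 and 19.2 CPM in replicates 1 to 4, and no injured library at any time was below 5.07 CPM. The 4 h libraries were thus like the 3 HOXC8-high controls in this gene. HOXC9 showed the same split, with 13.9 to 21.0 CPM in those 3 controls, at most 0.913 CPM in the others, and 15.4, 5.91, 15.0 and 10.1 CPM at 4 h. HOXA10, another homeobox gene, was at 0 in the 3 HOXC8-high controls and at up to 44.7 CPM in the others. It was higher at 4 h than in those 3, so the resemblance did not extend to this gene. Of 11 HOX genes 1 was called higher at 4 h against the 3 by edgeR, and 4 had an unadjusted p under 0.05. The mean correlation of log2 CPM across genes with the 3 HOXC8-high controls was 0.944, 0.905, 0.918 and 0.943 for replicates 1 to 4, against 0.907, 0.888, 0.912 and 0.922 with the other 6. These correlations describe libraries and have no test. The closest control was control 5 for replicate 1 and control 6 for the rest. Whether the controls come from different muscles or animals was not tested. Results are therefore given against all 9 controls and again against controls 5, 6 and 7 alone, a choice made after the data were seen. A comparison with 3 controls has less power than 1 with 9, the 3 are part of the 9, and calls of HOX genes against a group chosen by HOXC8 are circular.

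**Figure D1:**
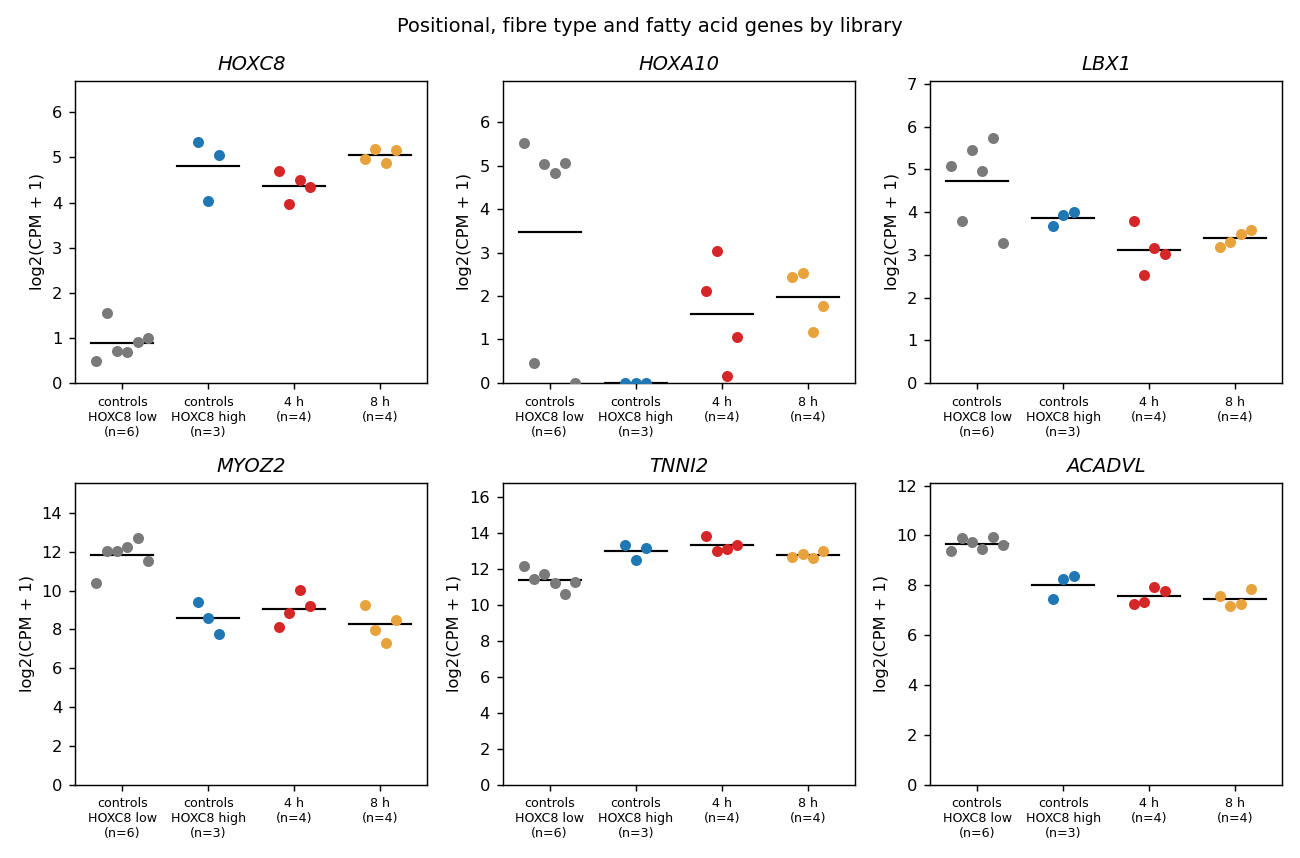
Level of 6 genes, as log2(CPM + 1), in the 6 controls low in HOXC8, the 3 controls high in HOXC8, the 4 libraries at 4 h and the 4 at 8 h. Points are libraries and bars are group means. For MYOZ2, TNNI2 and ACADVL the mean at 4 h lies nearer to that of the 3 HOXC8-high controls than to that of the other 6.

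Of the 9411 genes, 1721 (18.3%) were called at 4 h against all 9 controls by edgeR's quasi-likelihood test at a Benjamini-Hochberg adjusted p of 0.05. Of these, 868 (9.22%) were higher and 853 (9.06%) lower, and 312 and 351 of them differed by at least 2-fold. Counts of list members against the 9 controls are to be read beside these shares of 9.22% and 9.06%. In 445 genes (4.73%) the 4 libraries at 4 h did not overlap with the 9 controls. Against the 3 HOXC8-high controls, 654 genes (6.95%) were called, 488 (5.19%) higher and 166 (1.76%) lower, the shares beside which list counts against these 3 are to be read. The calls that held against both sets of controls numbered 451, which is 26.21% of the 1721 and 68.96% of the 654. Of the 868 higher genes 342 (39.4%) were also called against the 3 controls, and of the 853 lower genes 109 (12.78%). Among the lower genes 51 changed sign against the 3 controls, and among the higher genes 1 did. With the 5 library sets as a term in the fit, 259 genes (2.75%) were called, 172 higher and 87 lower, and 128 genes were called in all of these fits. Of the 12 rises named at the start, IL6, XIRP1, S100A10 and ANXA1 were not called with the sets as a term, with edgeR adjusted p of 0.15, 0.077, 0.077 and 0.088. Scaling by column totals in place of TMM moved the median log2 difference of all genes from -0.03 to -0.18 and the split of calls to 354 higher and 1337 lower, so directions below are relative to the TMM scale.

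CCL2, IL6, CSF1 and IL33 were among the ligands that rose. CCL2 (12:40798109-40800013 in Sscrofa11.1), the chemokine that draws monocytes, was at 28.5, 313, 363 and 35.6 CPM in 4 h replicates 1 to 4, against 0.435 to 24.5 CPM in the controls (median 6.77). All 4 libraries were above every control, and replicates 2 and 3 were far above replicates 1 and 4. The log2 difference was 4.28 (SE 0.66, edgeR adjusted p = 6.6e-05) against 9 controls and 4.45 (SE 0.97, edgeR adjusted p = 0.0092) against the 3. IL6, a cytokine that muscle fibres and resident cells release, rose by 3.30 on the log2 scale (SE 0.63, edgeR adjusted p = 0.00065), but replicate 1, at 4.00 CPM, lay within the control range of 1.33 to 7.69 CPM while the others were at 67.1, 81.5 and 16.1 CPM. CSF1, the growth factor of macrophages, rose by 1.91 (SE 0.39), from a control median of 18.8 CPM to 27.6, 130, 95.2 and 38.1 CPM. IL33, an alarm signal stored in the nuclei of stromal cells, was higher by 0.92 (SE 0.30) against 9 controls and was not called against the 3 (0.77, SE 0.40, edgeR adjusted p = 0.24). CXCL8, the main chemokine for neutrophils, was at 1.03, 5.61, 4.33 and 3.40 CPM, inside or just under the control range of 1.23 to 9.40 CPM (log2 difference -0.11, SE 1.11, edgeR adjusted p = 0.96). Against the 3 controls its difference was 1.19, without a call. AMCF-II and CXCL2, 2 other chemokines, differed by 3.16 and 0.98 (edgeR adjusted p = 0.055 and 0.070), and by 4.53 and 1.26 against the 3, without a call in either comparison. Of all 19 members 12 had a positive difference against the 9. Of the 19 chemokines and cytokines measured 5 rose and 1, CXCL9, fell, against backgrounds of 9.22% and 9.06%, and 4 rose against the 3 controls. Without replicate 2, 3 rose and none fell against the 9.

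Receptors and feedback genes of cytokine signalling were also called. Of 24 such genes 11 rose (45.8%, beside 9.22% of all genes) and none fell, and the median log2 difference over the list was 0.91 beside -0.03 over all genes. Against the 3 HOXC8-high controls 11 rose and the median was 1.40, beside 0.00 over all genes, and 9 were called with the 5 sets as a term. OSMR (16:24041312-24101842), the receptor chain of oncostatin M, was at 16.7, 121, 107 and 41.1 CPM against 6.59 to 17.2 CPM in the controls. Its difference was 2.67 (SE 0.35, edgeR adjusted p = 7.6e-06) against 9 controls and 3.17 (SE 0.57) against 3. IL6R, which binds interleukin-6, was at 35.7, 130, 144 and 32.4 CPM, with controls between 20.9 and 37.2 CPM. Here replicates 1 and 4 lay inside the control range and the call (1.77, SE 0.29, edgeR adjusted p = 0.00012) rested on the other pair. STAT3, the transcription factor these receptors activate, was called higher by 1.53 (SE 0.26), at 72.6, 368, 315 and 192 CPM beside a control median of 81.4 CPM. Replicate 1 was thus below that median. SOCS3, the inhibitor that STAT3 induces, was at 7.32, 196, 249 and 25.6 CPM. The control median of SOCS3 was 8.96 CPM, and control 2 was at 38.3 CPM, so replicates 1 and 4 did not exceed every control. Its log2 difference was 3.31 (SE 0.59, edgeR adjusted p = 0.00035) against 9 controls and 3.92 (SE 0.92, edgeR adjusted p = 0.013) against 3. IL4R, IL6ST, IL1R1, NFKBIZ, TNFRSF1A, TNFRSF1B and BCL3 were the other members called higher, and all but BCL3 were also called against the 3 controls, where TNFRSF12A was called as well.

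Transcription factors of the early response were split. Of 27 immediate early and AP-1 genes 4 rose (FOSL1, ARC, KLF10 and MYC), which is 14.8% beside 9.22% of all genes, and none fell. FOS and EGR1, which cells switch on within minutes, were not called: FOS was at 189, 653, 767 and 589 CPM against 114 to 1090 CPM in the controls (log2 difference 0.02, SE 0.40), and EGR1 was at 96.7, 115, 180 and 171 CPM against 56.7 to 628 CPM. The controls themselves ranged widely in both. FOSL1 (2:6430158-6436173), a late member of the AP-1 family, was at 2.40, 30.7, 40.6 and 8.12 CPM with controls at 0.492 to 2.37 CPM, a log2 difference of 4.17 (SE 0.55, edgeR adjusted p = 7.3e-06) that was 4.44 (SE 0.94) against the 3 controls. KLF5 (11:45370009-45386673), a zinc finger factor of vessels and epithelia, was above every control in all 4 libraries, at 25.3, 106, 169 and 47.6 CPM against 6.56 to 15.8 CPM. KLF5 was among the genes with the smallest p (2.93, SE 0.34, edgeR adjusted p = 1.4e-06). SOX9, a factor of cartilage and of stromal cells, was at 3.89, 21.4, 38.8 and 5.81 CPM against at most 2.92 CPM (3.53, SE 0.55). MYC, which drives growth and ribosome production, rose by 1.81 (SE 0.43) to 11.6, 101, 108 and 29.3 CPM, with replicates 1 and 4 within the control range of 7.87 to 33.0 CPM. ARC rose by 5.59 (SE 0.89), from at most 0.730 CPM in the controls to 0.343, 13.9, 35.4 and 1.98 CPM, a fold that rests on a handful of control counts.

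Genes of plasminogen activation and of the matrix around the fibres were among the rises. Of 23 matrix proteases and inhibitors 8 rose (34.8%) and 3 fell (13%), beside 9.22% and 9.06% of all genes. Against the 3 controls 7 were higher and 0 lower, and against the 9 without replicate 2 there were 5 higher and 1 lower. PLAU (14:76629313-76635173), the protease that turns plasminogen into plasmin, was at 40.6, 379, 309 and 77.0 CPM, all above the controls at 14.8 to 35.0 CPM (3.19, SE 0.45, edgeR adjusted p = 2.3e-05). Replicate 1 was just above the control range and replicates 2 and 3 were the highest. PLAUR, the receptor that holds PLAU at the cell surface, rose by 2.07 (SE 0.45) against 9 controls, while against the 3 the difference of 2.29 had an edgeR adjusted p of 0.052. TIMP1 (X:42103251-42106289), an inhibitor of metalloproteinases, was above every control in all 4 libraries, at 50.2, 182, 178 and 29.9 CPM against 7.50 to 18.9 CPM (3.29, SE 0.43). MMP19, a metalloproteinase, rose by 2.01 (SE 0.34), and ADAMTS4, which cleaves proteoglycans, rose by 2.76 (SE 0.68) with 3.89, 166, 161 and 23.3 CPM in the 4 libraries. LOXL4, a lysyl oxidase that cross-links collagen, was at 14.3, 76.8, 75.9 and 17.9 CPM against 1.63 to 9.31 CPM. It rose by 3.84 (SE 0.46, edgeR adjusted p = 2.4e-06) against 9 controls and by 4.28 (SE 0.71) against 3. Of 26 genes for matrix proteins and collagen-modifying enzymes 6 rose (23.1%) and 1 fell (3.85%), and LOXL4 and PLOD3 were the members called against the 3 controls. The 6 rises were 2 without replicate 2 and 3 without replicate 4. Among 9 hyaluronan genes 3 rose (33.3%): HAS1, a hyaluronan synthase, at 0.343, 3.77, 9.94 and 0.768 CPM where no control passed 0.274 CPM, CD44, the hyaluronan receptor (1.47, SE 0.44), and CEMIP2, a hyaluronan-degrading enzyme (0.84, SE 0.28). In replicate 1 HAS1 was at 3 counts, the limit that a count of 0 allows.

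**Figure D2:**
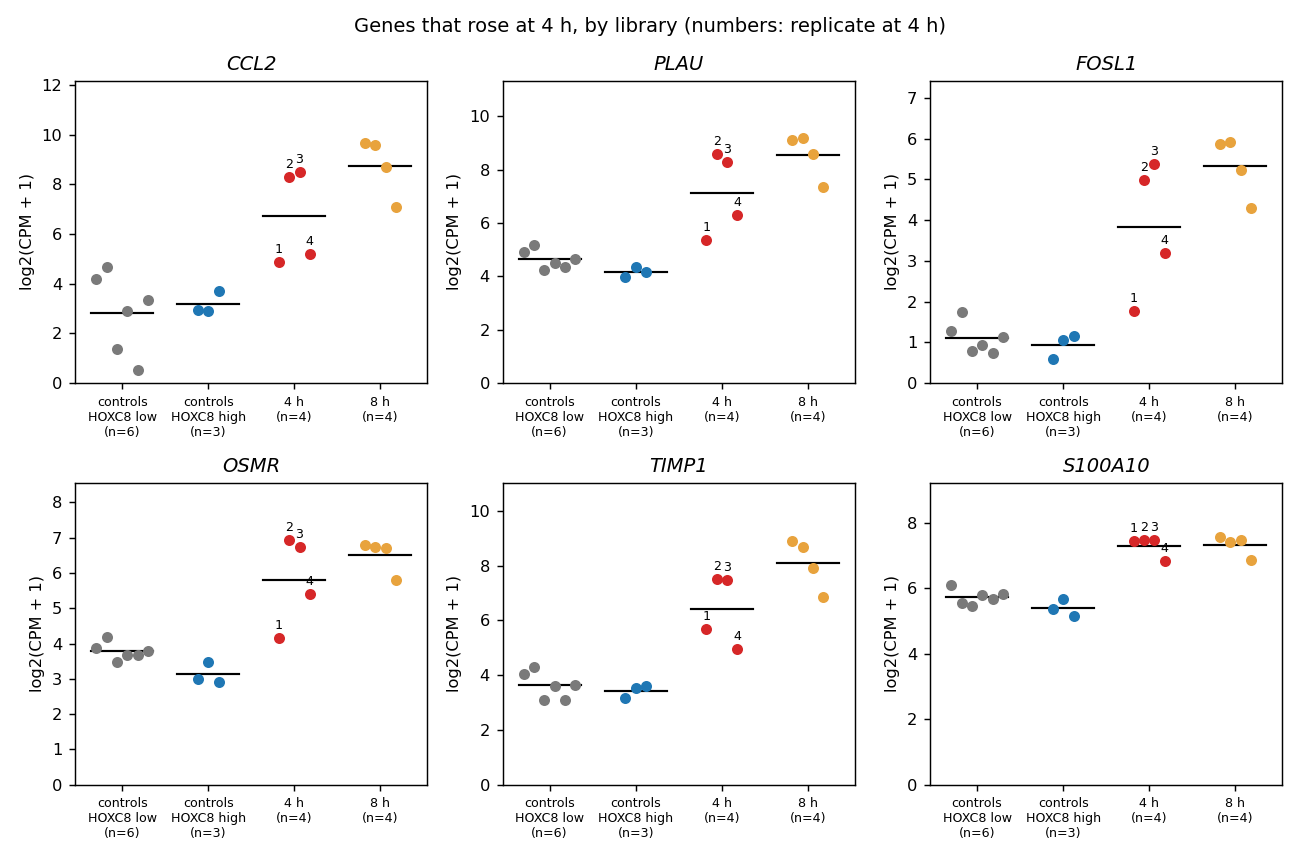
Level of CCL2, PLAU, FOSL1, OSMR, TIMP1 and S100A10 in the controls and at 4 h, as log2(CPM + 1). Points are libraries, and numbers beside the 4 h points are replicates. Replicates 2 and 3 are the highest at 4 h in the panels other than S100A10, where replicates 1, 2 and 3 lie together at 174 to 177 CPM.

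Several genes without a fixed place in these groups were called with little overlap. BAALC (4:33894240-33983920) had the smallest p with MAST4 (16:44972519-45562100), both with an edgeR adjusted p of 6.3e-07. BAALC, whose RNA is known from brain and immature blood cells, was at 11.2, 19.9, 29.5 and 10.9 CPM against 2.83 to 5.19 CPM, and MAST4, a kinase, was at 42.6, 147, 182 and 72.4 CPM against 13.6 to 28.9 CPM. All 4 injured libraries were above all 9 controls in both. BACH2 (1:57881203-58281740), a repressor best known from lymphocytes, was at 6.75, 34.5, 22.0 and 22.7 CPM with controls at 2.20 to 5.57 CPM (2.55, SE 0.31). CD9, a membrane tetraspanin, rose by 2.56 (SE 0.31), ACKR1, a decoy receptor for chemokines on venules, by 2.19 (SE 0.29), and SPIDR, a gene of recombination repair, by 2.24 (SE 0.27). SGMS2, a sphingomyelin synthase, rose by 3.85 (SE 0.50), although replicate 1, at 7.54 CPM, lay among the controls at 4.02 to 9.23 CPM. RASGEF1A, an exchange factor of Ras-like proteins, was at 0.800, 13.1, 5.61 and 1.98 CPM against at most 0.639 CPM (3.95, SE 0.60). All genes in this paragraph up to here were also called against the 3 controls, with edgeR adjusted p between 0.0017 and 0.014. Another group was not: NRN1, a neuritin that supports axon growth (3.46, SE 0.82), CRABP1, which binds retinoic acid (2.62, SE 0.49), MT4, a metallothionein (2.64, SE 0.63), and HOXC10 (3.20, SE 0.74). Their edgeR adjusted p against the 3 controls was 0.17, 0.065, 0.19 and 0.16, in that order. For CRABP1 the 3 HOXC8-high controls reached 4.80 CPM, the others at most 1.13 CPM, and the 4 h libraries were at 8.80, 6.93, 6.20 and 8.67 CPM.

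The 4 libraries at 4 h were far from alike. Among 6817 genes with a mean of at least 10 CPM at 4 h, 291 ranged over more than 4-fold within the 4 libraries. In 197 of the 291 the highest libraries were replicates 2 and 3, and in 34 they were replicates 1 and 4. Replicates 2 and 3 are in different library sets. ANKRD1 (14:102603777-102612857), a stretch-responsive repeat protein of the sarcomere, was at 156, 5888, 8312 and 790 CPM, against 37.4 to 583 CPM in the controls. XIRP1 (13:23867476-23876850), which binds actin at sites of fibre damage, was at 243, 8124, 8188 and 1629 CPM against 113 to 2022 CPM. In both genes replicate 1 was at a control level, replicate 4 was between, and replicates 2 and 3 were far above. DUSP5, a phosphatase that switches off ERK, was at 2.86, 116, 122 and 11.2 CPM, and RTKN2, a scaffold protein of small GTPase signalling, was at 0.915, 42.3, 51.6 and 2.85 CPM. All of these were called against 9 controls (log2 differences 4.01, 2.73, 3.55 and 4.39) and against the 3 (5.22, 4.82, 4.15 and 6.76). Other genes did not follow that order. S100A10, the partner of annexin A2, was at 174, 177, 176 and 112 CPM, every library above the controls at 34.6 to 67.3 CPM. LGALS3, a galectin of macrophages and injured cells, was highest in replicate 1, at 55.3, 39.9, 34.8 and 29.3 CPM against 9.46 to 16.8 CPM. NQO1, a detoxifying enzyme of the NRF2 response, was even across the libraries, at 39.7, 40.5, 38.2 and 36.5 CPM against 13.1 to 32.1 CPM. Replicate 1 was thus above every control in these last 3 genes and inside the control range in ANKRD1, XIRP1, DUSP5 and RTKN2. Without replicate 2 the count of calls against control fell from 1721 to 608, and without replicate 1 it was 1954. How hard each sampled area was hit, and how far it lay from the blow, is not given, and their part in this spread was not tested.

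**Figure D3:**
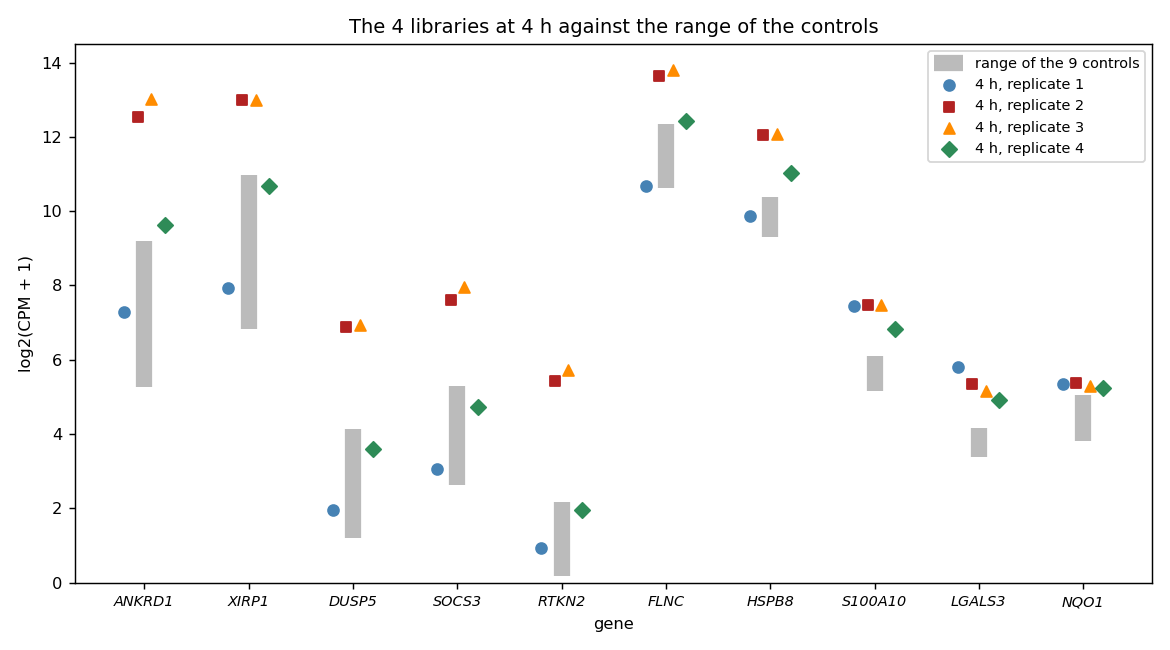
Level of 10 genes, as log2(CPM + 1), in each of the 4 libraries at 4 h (coloured points) beside the range of the 9 controls (grey bars). In the 5 genes on the left replicates 2 and 3 stand above the controls and replicate 1 lies inside their range, while in S100A10, LGALS3 and NQO1 all 4 libraries stand above it.

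Markers of blood leukocytes differed by class. In bulk tissue, fewer cells of a type and less RNA per cell cannot be told apart. None of 11 neutrophil markers was called by edgeR against 9 controls (1 at an unadjusted p under 0.05, and none by DESeq2) or against 3 (2 at an unadjusted p under 0.05), and their summed level was 10.5, 25.7, 23.7 and 7.35 CPM at 4 h, against 5.78 to 20.7 CPM in the controls. S100A12, a granule protein, was at 1.26, 2.75, 4.56 and 0.329 CPM, overlapping with the controls. The sums of replicates 2 and 3 were above every control sum. The HOXC8-high controls had the lower sums, 5.78 to 9.67 CPM, so that replicates 1, 2 and 3 were above all 3 of them, and the list median was 0.48 against the 9 and 1.49 against the 3. S100A12 was at 0 to 0.492 CPM in these 3 controls (3.35, SE 1.39, edgeR adjusted p = 0.14), and CSF3R, the receptor of granulocyte colony-stimulating factor, was at 0 to 0.549 CPM in them and at 1.37, 4.79, 3.80 and 0.110 CPM at 4 h (3.10, SE 1.56, edgeR adjusted p = 0.22). Of 24 macrophage markers 5 rose (LGALS3, SPP1, MSR1, LYZ and CCR1), which is 20.8% beside 9.22% of all genes, and none fell, and none was called by edgeR against the 3 controls (5 at an unadjusted p under 0.05). Of the 24 markers 16 had a positive difference against the 9, with a list median of 0.53. C1QA, CSF1R and VSIG4 had differences of -0.74, -0.80 and -0.92, without a call. The summed level of the 24 was 312, 386, 245 and 204 CPM against 129 to 316 CPM in the controls. SPP1, osteopontin, was at 7.09, 139, 22.4 and 9.21 CPM, so a single library set its mean. The 5 calls were 1 without replicate 2, 2 without replicate 3 and 3 without control 6. MSR1, a scavenger receptor, was above every control in all 4 libraries, at 3.09, 7.44, 6.96 and 3.40 CPM against at most 2.34 CPM. Of 19 lymphocyte markers NKG7 alone was measured, and it was not called. Of 16 mast cell, erythrocyte and platelet markers 5 were measured, and none was called by edgeR (1 at an unadjusted p under 0.05) and 1 by DESeq2.

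Vessel genes differed by class. Of 14 endothelial identity markers none was called against 9 controls by edgeR (1 at an unadjusted p under 0.05) or by DESeq2, with a median log2 difference of -0.05. Against the 3 HOXC8-high controls 3 were higher: KDR, the main receptor of VEGF (1.10, SE 0.31, edgeR adjusted p = 0.035), ERG, an endothelial transcription factor (0.95, SE 0.19), and ESAM, a junction protein (0.64, SE 0.19). Of 13 endothelial activation and coagulation genes 5 rose (38.5%) and 1, F3, fell (7.69%) against 9 controls, beside 9.22% and 9.06% of all genes. SELP, P-selectin, which lets leukocytes roll on venules, was at 3.31, 14.9, 14.2 and 4.17 CPM against 2.39 to 5.52 CPM (1.55, SE 0.38). VCAM1, an adhesion molecule, was above every control in all 4 libraries, at 63.5, 88.9, 90.7 and 66.4 CPM against 27.4 to 56.4 CPM (0.86, SE 0.24). Neither was called against the 3 controls (edgeR adjusted p 0.067 and 0.17), where PROCR was. The 5 rises of this list were 2 without replicate 2. Among 14 pericyte and smooth muscle markers 6 fell (42.9%) and 1, CNN1, rose (7.14%). RGS5, a pericyte gene, was at 158, 174, 184 and 227 CPM, below every control at 229 to 499 CPM (-1.01, SE 0.26, edgeR adjusted p = 0.0078), and ACTA2, smooth muscle actin, was lower by 0.92 (SE 0.26). Against the 3 controls none of the 14 was called lower by edgeR, though 6 had an unadjusted p under 0.05 in either direction, and RGS5 had a difference of -0.62 (SE 0.30). The 6 falls against the 9 were 1 without replicate 2 and 3 without replicate 3. Of 9 nerve and Schwann cell genes 4 rose (44.4%), led by PMP22, a myelin protein also made by fibroblasts, at 144, 221, 229 and 125 CPM against 55.9 to 87.9 CPM (1.30, SE 0.18, edgeR adjusted p = 1.9e-05). PMP22 was the member also called against the 3 controls. None of 15 fibroblast markers and none of 4 skin markers was called by edgeR in either comparison or by DESeq2 against the 9, and 1 fibroblast marker and 0 skin markers had an unadjusted p under 0.05 in each.

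Genes of membrane repair and of the stretched sarcomere rose in part. Of 21 dystrophin complex and membrane repair genes 5 rose (23.8%) and 1 fell (4.76%), beside 9.22% and 9.06% of all genes. Of the rises 4 were also called against the 3 controls: S100A10 (1.71, SE 0.27, against the 9 and 1.94, SE 0.40, against the 3), S100A11 (1.54, SE 0.33, and 1.75, SE 0.49), ANXA1 (1.87, SE 0.31, and 2.12, SE 0.48) and ANXA5 (0.99, SE 0.23, and 1.54, SE 0.30). With the 5 sets as a term none of the rises was called, with edgeR adjusted p of 0.077, 0.099, 0.088 and 0.19 for these 4, and the fall of ANXA4 was. ANXA1, an annexin that seals membranes and calms neutrophils, was at 156, 390, 386 and 235 CPM, above the controls at 61.6 to 116 CPM in every library. ANXA4 was the member that fell, by 0.77 (SE 0.17) against 9 controls, with -0.29 (SE 0.16) and no call against the 3. Of 23 Z-disc, M-band and mechanical stress genes 4 rose (17.4%) and 3 fell (13%), or 3 and 1 without replicate 2. The rises were ANKRD1, XIRP1, KLHL40, which stabilises thin filaments, and FLNC, the muscle filamin, and the falls MYOM3, a myomesin of the M-band (-1.85, SE 0.47), TCAP, the titin cap (-1.57, SE 0.44), and DES. KLHL40 had an edgeR adjusted p of 0.062 against the 3 controls, and none of the falls was called against them. The difference of MYOM3 turned to 0.25 against the 3, and that of TCAP was -0.68. FLNC was at 1647, 12700, 14300 and 5510 CPM with controls at 1572 to 5218 CPM (1.37, SE 0.34, and 2.13, SE 0.45, against the 3). DES, desmin, was at 4067, 3952, 5941 and 4655 CPM against a control median of 7540 CPM (-0.85, SE 0.22), with -0.45 (SE 0.23) and no call against the 3. Of 9 defining markers of skeletal muscle measured 1 rose and 1 fell, and CKM, muscle creatine kinase, was at 29620, 29360, 29790 and 39290 CPM against 18806 to 32664 CPM in the controls, so this muscle marker was abundant in all 13 libraries.

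Cell stress programmes were called gene by gene. HSPB8, a chaperone that works with BAG3 on damaged filamin, was at 935, 4230, 4326 and 2073 CPM against 630 to 1323 CPM (1.79, SE 0.30, edgeR adjusted p = 0.00015). It was 1 of 2 called among 23 heat shock genes against 9 controls, with HSF2 (8.7%, near the 9.22% of all genes). Against the 3 controls 7 were higher, among them HSPH1 (2.05, SE 0.46) and HSPB1 (1.77, SE 0.43), whose levels in the 6 other controls reached 237 and 214 CPM. Of 23 oxidative stress, haem and metal genes 8 rose (34.8%) and 1 fell (4.35%), and 6 rose against the 3 controls. NQO1 and SRXN1, both NRF2 targets, rose by 1.08 (SE 0.18) and 2.69 (SE 0.61), and MT1A, a metallothionein with near-identical copies whose counts are uncertain, was at 1.26, 8.56, 5.32 and 0.329 CPM where no control passed 0.326 CPM. In replicate 4 MT1A was at 3 counts, the limit that a count of 0 allows. BLVRB, biliverdin reductase B, was lower by 1.75 (SE 0.37) against 9 controls and was not called against the 3. Of 29 unfolded protein and amino acid response genes 8 rose (27.6%) and none fell. PHGDH (4:101445977-101478144), the entry enzyme of serine synthesis, was above every control in all 4 libraries, at 6.63, 16.5, 6.49 and 9.11 CPM against 1.10 to 3.19 CPM (2.07, SE 0.35, edgeR adjusted p = 0.00017). XBP1, a factor of the unfolded protein response, rose by 0.70 (SE 0.17). ASNS, asparagine synthetase, was at 29.4, 46.0, 25.7 and 31.4 CPM, but the HOXC8-high controls were at 12.9 to 38.1 CPM and the others at 2.83 to 8.27 CPM, and it was not called against the 3 (0.43, SE 0.34). Against the 3 controls 5 of the 29 rose and 1, HERPUD1, fell. Without replicate 2, the calls against 9 controls included 4 rises among the oxidative stress genes and 2 among the unfolded protein genes, and the latter were 5 without replicate 3, control 1 or control 4. With the 5 sets as a term 3 oxidative stress genes and 1 unfolded protein gene were called higher.

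Interferon genes were called against either set of controls. Of 28 interferon response genes 6 rose against 9 controls (21.4%, beside 9.22% of all genes), among them SAMHD1, ISG15, STAT2, IFI44 and HERC6, with a list median of 0.53. Against the 3 controls 13 rose, with a median of 0.94. With the 5 sets as a term 1 of the 28 was called higher. ISG15, a ubiquitin-like modifier, was at 11.4, 23.3, 31.4 and 25.4 CPM against 4.30 to 15.8 CPM in the controls, with 4.30 to 8.86 CPM in the HOXC8-high ones (1.16, SE 0.34, and 1.89, SE 0.48). RSAD2, an antiviral enzyme, was at 7.54, 34.1, 32.7 and 39.7 CPM. In the HOXC8-high controls it was at 3.63 to 5.17 CPM, in the others at 7.42 to 32.8 CPM, so it was called against the 3 (2.65, SE 0.55, edgeR adjusted p = 0.0074) and not against the 9 (0.96, SE 0.47, edgeR adjusted p = 0.15). Without replicate 2 or without replicate 3 a single member was called against 9 controls, without replicate 1 there were 10, and with column totals as the scale none was by edgeR, although the list median stayed positive at 0.37. Genes of ribosome production gave more calls: of 28 ribosome biogenesis and translation factor genes 13 rose (46.4%) and none fell (median 0.52), while 1 of 36 ribosomal protein genes rose (2.78%). NOP2, a methylase of ribosomal RNA, rose by 1.12 (SE 0.20) to 41.2, 97.4, 76.3 and 54.9 CPM from 22.2 to 42.3 CPM. FBL, fibrillarin of the nucleolus, was above every control in all 4 libraries (0.72, SE 0.13). The 13 calls fell to 4 without replicate 2, to 6 without replicate 3 and to 5 with column totals, and 4 genes were called against the 3 controls. With the 5 sets as a term 3 of these 28 genes were called higher.

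Fibre type genes differed against the 9 controls and not against the 3. Of 11 fast fibre genes 4 rose (36.4%, beside 9.22% of all genes) and none fell, with a median log2 difference of 0.97. Of 12 slow fibre genes 5 fell (41.7%, beside 9.06%) and none rose, with a median of -1.31. Against the 3 HOXC8-high controls no gene of either list was called by edgeR, none had an unadjusted p under 0.05, and the medians were 0.07 and 0.38. TNNI2, fast troponin I, was at 14810, 8143, 9023 and 10350 CPM at 4 h. It was at 5785 to 10422 CPM in the HOXC8-high controls and at 1578 to 4564 CPM in the other 6. MYOZ2, a calsarcin of slow fibres, was at 276, 454, 1043 and 579 CPM at 4 h, at 216 to 675 CPM in the HOXC8-high controls and at 1345 to 6608 CPM in the others. All 4 injured libraries were above the other 6 controls in TNNI2 and below them in MYOZ2, where replicate 3 lay between the 2 sets of controls. The log2 difference of MYOZ2 was -2.26 (SE 0.66, edgeR adjusted p = 0.017) against the 9 and 0.46 (SE 0.54, edgeR adjusted p = 0.64) against the 3. MYH7, the slow myosin heavy chain, was not called and overlapped with both sets of controls, at 3458 to 10070 CPM at 4 h, 2451 to 6906 CPM in the HOXC8-high controls and 9806 to 39021 CPM in the others. ACTN3, the fast fibre actinin, was not called either, but at 3734 to 6383 CPM its 4 h libraries lay within the HOXC8-high range of 3702 to 7091 CPM and above the others at 373 to 1623 CPM. The counts against the 9 moved with single libraries. Leaving out any of the 4 h libraries, or any of controls 2, 3, 4, 8 and 9, left 1 fast fibre gene called, and without control 1 there were 2, while without control 7, a HOXC8-high one, there were 7. For slow fibre genes the 5 falls were 1 without 4 h replicate 2, 2 without replicate 4, 3 without replicate 3 or any of controls 2, 3, 4, 8 and 9, and 8 without control 7.

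Genes of fatty acid use were called against the 9 controls and not against the 3. Of 32 genes of fatty acid uptake and oxidation 20 fell and 1, ANGPTL4, rose against 9 controls (median -0.95), which is 62.5% of the list beside 9.06% of all genes called lower. Against the 3 controls none was called by edgeR (3 at an unadjusted p under 0.05) and the median was -0.34. ACADVL, the dehydrogenase for very long chains, was at 153, 161, 246 and 216 CPM at 4 h, at 176 to 330 CPM in the HOXC8-high controls and at 673 to 993 CPM in the other 6. ACADL and ETFDH were below every control in all 4 libraries: ACADL was at 86.0, 75.3, 106 and 89.4 CPM, and the lowest control, at 112 CPM, was a HOXC8-high one. Their differences were -1.47 (SE 0.32) and -1.37 (SE 0.28) against the 9, and -0.61 (SE 0.33) and -0.92 (SE 0.32) against the 3, with edgeR adjusted p of 0.25 and 0.08. Without replicate 2 the 20 falls were 7, and with the 5 sets as a term 2. Of 28 glycolysis and glycogen genes 4 rose (14.3%) and 2 fell (7.14%), with a median of 0.73, and -0.05 against the 3. Of 26 tricarboxylic acid cycle genes 4 fell (15.4%), and of 43 nuclear respiratory chain genes 4 fell, which at 9.3% is near the 9.06% of all genes. Without replicate 2 the glycolysis list had 1 rise and 1 fall and each of the other 2 lists 1 fall, and without controls 5 or 7, both HOXC8-high, the glycolysis list had 12 or 11 rises. The tricarboxylic acid cycle list had 2 falls without 4 h replicate 1 or 4 or without control 3 or 8. HK1, hexokinase 1, was the glycolysis gene also called against the 3 (1.31, SE 0.32, and 1.65, SE 0.48), at 33.6, 119, 88.3 and 51.7 CPM against 19.9 to 36.8 CPM. PFKFB3, which makes the activator of phosphofructokinase, rose by 2.10 (SE 0.50) against the 9, with 1.44 (SE 0.60) and no call against the 3.

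A regulator of this programme was lower against either set of controls. PPARGC1B (2:150823338-150924871), a coactivator of mitochondrial and fatty acid genes, was at 3.09, 2.34, 4.68 and 3.29 CPM, all below the controls at 11.4 to 22.2 CPM. The HOXC8-high controls were at 11.4 to 19.3 CPM and the others at 12.0 to 22.2 CPM, so the controls did not part here. The log2 difference was -2.24 (SE 0.39, edgeR adjusted p = 0.0003) against 9 and -2.14 (SE 0.49, edgeR adjusted p = 0.011) against 3, and it was -1.30 with the 5 sets as a term (edgeR adjusted p = 0.12). Of 24 oxidative metabolism regulators 2 rose (8.33%) and 6 fell (25%) against the 9 (1 fall without replicate 2, and 5 without replicate 4), and PPARGC1B and RXRA were lower against the 3. ESRRA and ESRRB, nuclear receptors of the same programme, fell against the 9 (-1.24, SE 0.34, and -1.90, SE 0.57) and were at -0.39 (SE 0.35) and 0.23 (SE 0.57) against the 3. PPARGC1A, a member of the same list, was called in neither comparison, with differences of -0.13 against the 9 and 0.56 against the 3.

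**Figure D4:**
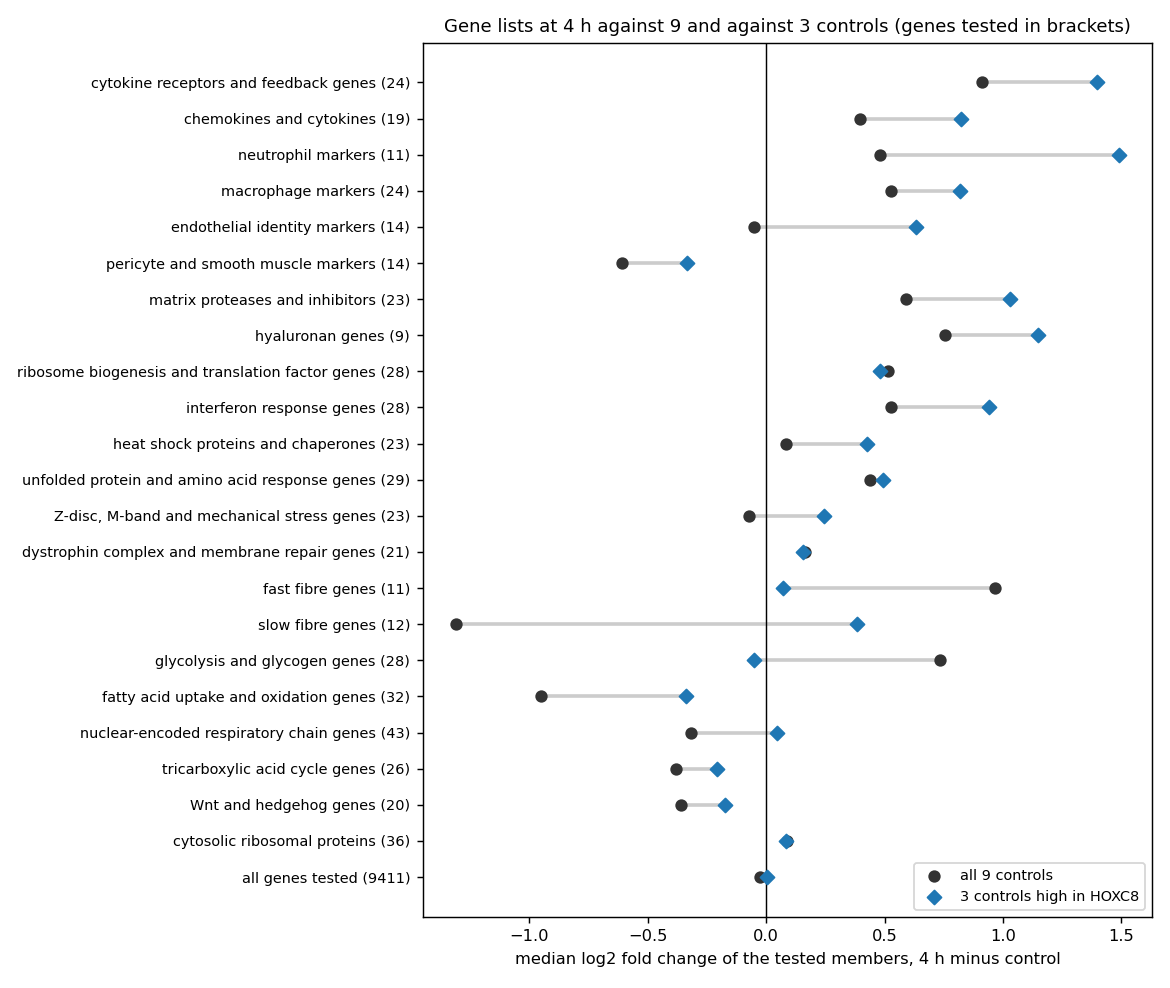
Median log2 difference of gene lists at 4 h against all 9 controls (circles) and against the 3 HOXC8-high controls (diamonds). The medians of fast fibre, slow fibre, fatty acid and glycolysis genes lie near 0 or move towards it against the 3 controls, and those of cytokine receptors and interferon genes move further up.

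Other falls held in part against the 3 controls. TBX1 (14:51289376-51297110), a T-box factor known from head muscle, was at 2.86, 1.83, 1.81 and 1.86 CPM, below every control at 5.41 to 51.0 CPM. The HOXC8-high controls were the lowest of the 9, at 5.41 to 9.56 CPM, and the difference shrank from -3.06 (SE 0.46, edgeR adjusted p = 4.7e-05) to -1.88 (SE 0.35, edgeR adjusted p = 0.0043) against them. ZFYVE28 (8:1225417-1312938), a regulator of growth factor receptor traffic, was at 1.72, 1.22, 0.819 and 0.878 CPM against 5.53 to 8.56 CPM, and its difference was -2.56 against the 9 (SE 0.41) and against the 3 (SE 0.51). HHIP, which binds and blocks hedgehog ligands, was at 2.06, 0.612, 0.643 and 1.86 CPM against 2.19 to 9.19 CPM, with -2.03 (SE 0.44) and -1.98 (SE 0.53). It was the member called against the 3 among 20 Wnt and hedgehog genes, of which 6 fell (30%) and none rose against the 9. BARX2, a homeobox gene of muscle stem cells, TPPP, a tubulin-binding protein, B3GALT1, a galactosyltransferase, HIC1, a repressor of stromal progenitors, MN1, and MIEF2, a mitochondrial fission factor, were below every control in all 4 libraries, by log2 differences between -4.25 (BARX2) and -2.23 (MIEF2). None of these 6 was called against the 3 controls, with edgeR adjusted p between 0.069 and 0.51. For BARX2 the controls ran from 0.659 to 34.2 CPM, and the HOXC8-high ones held the lowest values. Without replicate 2, B3GALT1, HIC1 and MIEF2 were not called against the 9 (edgeR adjusted p 0.052, 0.06 and 0.055).

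Stem cell, cell death and wasting genes were called in part. Of 22 satellite cell and myogenic genes 3 rose (13.6%) and 4 fell (18.2%), beside 9.22% and 9.06% of all genes, or 2 and 2 without replicate 2. PAX7, the marker of satellite cells, was at 9.03, 22.6, 16.1 and 14.7 CPM against 5.00 to 13.3 CPM (0.76, SE 0.25, and 0.68, SE 0.33, without a call, against the 3), and MYH8, a myosin of newborn and regenerating fibres, was at 207, 248, 515 and 259 CPM against 5.75 to 237 CPM (2.42, SE 0.61, edgeR adjusted p = 0.0071). For MYH8 the HOXC8-high controls were the upper ones, at 37.0 to 237 CPM, and it was not called against them (1.22, SE 0.66). FSTL3, an inhibitor of activins, rose by 1.59 (SE 0.24) to 21.4, 47.1, 76.7 and 21.2 CPM from at most 17.8 CPM and held against the 3 (1.46, SE 0.35). IGF1 fell by 1.24 (SE 0.31) against the 9 and was at -0.88 (SE 0.32) against the 3. Of 20 cell death genes 4 rose against the 9, which is 20% (8 without replicate 1, 1 without replicate 2 and 2 without replicate 3). Of 31 ubiquitin ligase, FOXO and autophagy genes 6 rose (19.4%) and 3 fell (9.68%) (1 rise without replicate 2, and 2 rises and 2 falls without replicate 3). TRIM63 (MuRF1), a ligase of muscle wasting, was at 1293, 1097 and 681 CPM in replicates 2, 3 and 4 and within the control range of 252 to 623 CPM in replicate 1 (1.03, SE 0.31), and was not called against the 3 (edgeR adjusted p = 0.097). CBLB, another ligase, rose in both comparisons (1.30, SE 0.30, and 1.84, SE 0.43). None of 30 proteasome genes was called against the 9 by edgeR (5 at an unadjusted p under 0.05) or by DESeq2.

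Other lists gave at most 6 calls each, with up to 16.7% of a list higher and 13.3% lower, beside 9.22% and 9.06% of all genes. Near those shares were the hypoxia (10% higher and 5% lower), growth factor (10.7% and 10.7%), adipocyte (6.25% and 6.25%) and mitochondrially encoded (8.33% and 8.33%) lists. Of 20 hypoxia response genes 2 rose and 1 fell, of 12 arginine and polyamine genes 2 rose and 1 fell, and of 18 glucocorticoid-induced genes 3 rose and 1 fell (1 rise without replicate 2). Of 27 cell cycle genes 3 rose and 1 fell, with CCND2, a D-type cyclin, at 24.5, 24.9, 23.1 and 11.2 CPM against 5.54 to 15.1 CPM (0.93, SE 0.22, and 1.09, SE 0.30, against the 3). Of 28 growth factor and TGF-beta family genes 3 rose and 3 fell, and of 15 genes of membrane excitability and the neuromuscular junction 1 rose and 2 fell. DOK7, which clusters acetylcholine receptors at the junction, fell by 1.77 (SE 0.49) against the 9 and was at -1.52 (SE 0.58) without a call against the 3. Of 18 calcium handling genes 1 fell, of 16 adipocyte genes 1 rose and 1 fell, and none of 11 antigen presentation and complement genes was called by edgeR (0 at an unadjusted p under 0.05) or by DESeq2. Of 12 mitochondrially encoded genes ND4L was called higher and ND6 lower, and ND6 is 1 of the genes that define the library sets.

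Of 17 clock genes 4 rose (NFIL3, CLOCK, CRY1 and NPAS2) and 3 fell, among them PER1 and TEF, against the 9, which is 23.5% and 17.6% of the list. Against the 3 controls 4 rose (ARNTL, NFIL3, NPAS2 and CRY1) and 2 fell (PER2 and TEF). ARNTL (BMAL1), which drives the clock's positive arm, was at 12.7, 34.5, 29.7 and 43.0 CPM at 4 h, at 3.19 to 6.64 CPM in the HOXC8-high controls and at 3.54 to 43.0 CPM in the others. PER2, of the negative arm, was at 16.9, 5.30, 4.15 and 3.95 CPM at 4 h, at 27.5 to 29.5 CPM in the HOXC8-high controls and at 1.88 to 25.8 CPM in the others. Against the HOXC8-high controls the log2 difference was 2.78 (SE 0.46) for ARNTL and -1.94 (SE 0.48) for PER2, while CRY1, also of the negative arm, was higher by 0.75. The hour of day at which each library was taken is not given, and without replicate 2 none of the 17 was called by edgeR against the 9 (10 of the 17 had an unadjusted p under 0.05 with all libraries). Without replicate 3 there were 1 rise and 2 falls, and without replicate 4 there were 2 rises.

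Against the next time, 8 h, 2950 genes (31.3%) differed at 4 h, 1448 (15.4%) higher and 1502 (16.0%) lower, and against the mean of the 6 later times 3063 (32.5%) differed, 1612 (17.1%) higher and 1451 (15.4%) lower. With column totals as the scale the splits were 926 higher and 1275 lower against 8 h and 468 higher and 3759 lower against the later times, where the median of all genes moved from 0.01 to -0.38, so these directions are relative to the TMM scale. With the library sets as a term no gene was called against 8 h (841 at an unadjusted p under 0.05) and none against the later times (1365). The 4 h libraries lie in sets 2 and 3 and the 8 h libraries in sets 1 and 5, so time and set cannot be told apart between these times. Within that limit, the leukocyte markers were lower at 4 h: 11 of 11 neutrophil markers were called lower than at 8 h, where their sum was 30.7 to 440 CPM, and 10 of 24 macrophage markers were (2 and 6 by limma-voom, and 6 of the macrophage markers without 8 h replicate 1). CXCL8 was at 3.09 to 340 CPM at 8 h (4 h lower by a log2 of 5.26, SE 1.38), and AQP9, a water and glycerol channel of neutrophils, was at 2.65 to 16.5 CPM against 0.110 to 0.917 CPM at 4 h. Some of the early genes were also lower at 4 h than at 8 h. SOCS3 was lower by 2.38, STAT3 by 1.42, TIMP1 by 1.49 and CSF1 by 1.78, 13 of 24 cytokine receptor and feedback genes and 21 of 28 ribosome biogenesis genes were called lower, and none of either list was higher. The 13 were 7 without 4 h replicate 1 or 8 h replicate 1 and 8 without 4 h replicate 4. CCL2 and ANKRD1 were not called between these times, with 8 h ranges of 136 to 818 and 7413 to 19534 CPM.

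Genes of serine synthesis were among those higher at 4 h than at 8 h. PHGDH was higher than at 8 h by a log2 of 3.62 (edgeR adjusted p = 5e-05), at 0.347 to 1.45 CPM there, and was again at 2.83 to 16.4 CPM at 12 h. PSPH, which completes that pathway, was at 6.17, 7.34, 7.48 and 5.59 CPM at 4 h and at 0.672 to 1.36 CPM at 8 h. CRABP1, at 6.20 to 8.80 CPM at 4 h, was at 0.441 to 0.955 CPM at 8 h and again at 4.88 to 8.45 CPM at 12 h. NRN1 likewise was at 7.24 to 16.7 CPM at 4 h, at most 1.63 CPM at 8 h and 3.53 to 6.53 CPM at 12 h. No 8 h library is in set 2, which holds 3 of the 4 h libraries, 2 at 12 h, 2 at 20 h and 1 at 24 h. Its 20 h and 24 h libraries were at 0.451 to 0.932 CPM in PHGDH, 0.214 to 1.93 CPM in CRABP1 and 0.214 to 6.34 CPM in NRN1. The 12 h libraries of set 4 were at 4.10 and 2.83 CPM in PHGDH, 4.88 and 5.26 CPM in CRABP1 and 6.15 and 6.43 CPM in NRN1. In set 2 the 12 h libraries were at 6.68 and 16.4 CPM in PHGDH and at 8.45 and 7.21 CPM in CRABP1. In NRN1 those of set 2 were at 3.53 and 6.53 CPM. The part of set in these levels was not tested. BACH2 and BAALC were higher than at 8 h by 1.24 and 0.92. HHIP, lower than in the controls at 4 h, was at 0 to 0.110 CPM at 8 h. ND4L, a mitochondrial gene, was called higher at 4 h than at 8 h (3.35) with replicate 3 at 38.6 CPM and the others at 3.77, 1.32 and 3.29 CPM. Its difference from the controls, 2.07, became -0.03 without replicate 3, the library of set 3 and the deepest of the group. Of 43 nuclear respiratory chain genes 19 were higher at 4 h than at 8 h and 34 higher than the mean of the later times, and none was lower in either. The 19 were 9 to 12 without 4 h replicate 1 or without 8 h replicate 1, 2 or 3, with 15 higher and 2 lower without 4 h replicate 3, and the 34 were 28, with 1 lower, with column totals.

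**Figure D5:**
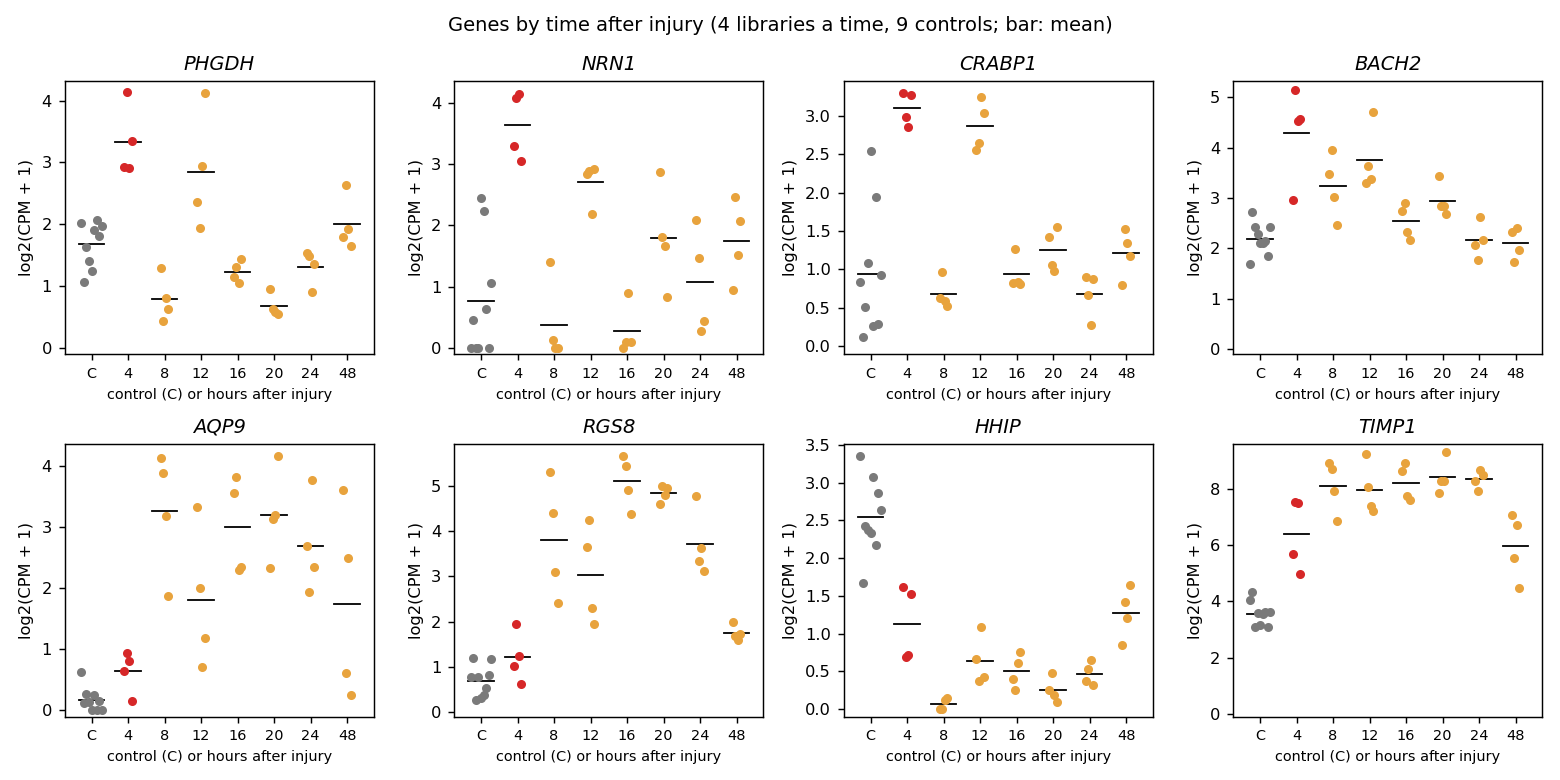
Level of 8 genes, as log2(CPM + 1), in every library of the controls and the 7 times. Points are libraries and bars are means. PHGDH, NRN1, CRABP1 and BACH2 are higher at 4 h than at 8 h, and AQP9, RGS8 and TIMP1 are lower.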

How the data were processed

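RNA was read as 150 bp pairs from Trizol extracts with a NEBNext Ultra kit, per the labels' protocols. Per the submitters' processing notes, the tools were FastQC, MultiQC, Trimmomatic, HISAT2 2.2.1 and HTSeq, and the build Sscrofa11.1. The values deposited by the authors are raw counts per gene symbol. No gene has a largest count under 101, so the table is a selection. Its rule, the annotation release and the strand setting have no mention in the labels, and overlapping antisense genes cannot be told apart without the last. The files' values were checked to be whole numbers.

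Counts were scaled by TMM in edgeR 4.0.16 (R 4.3.3, limma 3.58.1), which kept 9411 of 9418 genes (filterByExpr) and fitted robust quasi-likelihood models to all 37 libraries with group as the factor (29 residual degrees of freedom). Differences are log2 values from that fit with the standard error (SE) of n = 4 and 9 libraries, levels are TMM-scaled CPM, and p-values are adjusted by Benjamini-Hochberg over all genes. The script was tested on simulated data. Levels were not compared between genes, since no transcript lengths were used.

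Libraries of a group were compared by a chi-square of counts over genes with at least 20 summed counts and all pairs differed by more than sampling noise (lowest chi-square per degree of freedom 22.4 in controls and 57.0 at 4 h). Same-numbered controls and 4 h libraries did not stand out as pairs: their deviations correlated at 0.07, 0.08, 0.06 and -0.19, and those of other pairs at -0.27 to 0.36. These correlations cannot exclude that libraries share an animal.

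The groups compared and the 48 gene lists were chosen with earlier results of these data known. Genes were named by rule: of called genes whose 4 h and control libraries did not overlap and whose higher group averaged at least 5 CPM, the 12 that rose and the 10 that fell most, then the 10 smallest p, up to 4 members of each list by p, 5 rises and 5 falls against the later times, and the 5 genes with the largest spread at 4 h. Outside this rule, and after their values were seen, HOXC8, HOXC9, HOXA10, ZIC1, CXCL8, FOS, EGR1, CCR1, ERG, ESAM, HSPH1, HSPB1, RSAD2, ARNTL, PER2, NPAS2, TRIM63, PAX7, CKM, MYH7 and ACTN3 and the other members listed by name were added. Some genes that the rule names are not reported here. Spans of 8945 symbols come from a RefSeq gene table of Sscrofa11.1. Alternatives were RLE, upper-quartile and total-count scaling, the gene filter, limma-voom, DESeq2 1.42.0, fewer groups, a replicate block, library sets, a test against 2-fold and leaving out each library. The library sets are defined by a column total over 20 M, C1QBP over 8 CPM, NDUFAF8 under 4 CPM and ND6 at most or over 32 CPM, and the HOXC8-high controls by at least 10 CPM. Both were set after the data were seen.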

Additional observations from a re-analysis of the deposited data

Results flagged for a closer look

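Genes that differed between 4 h and 8 h numbered 2950 by edgeR's quasi-likelihood test. Among the genes named, NRN1, PHGDH, CRABP1, ND4L, BACH2 and BAALC were higher at 4 h, by log2 differences of 4.78, 3.62, 3.61, 3.35, 1.24 and 0.92. LOXL4, TIMP1, ZFYVE28, HIC1, CEMIP, RGS8 and AQP9 were lower at 4 h, with log2 differences of -1.46, -1.49, -1.28, -2.02, -3.46, -3.60 and -4.06. None of these differences was called with the library sets as a term.

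A library stood apart from the rest of its group in 12 genes, 7 of 146 tested at 4 h and 5 of 142 tested in the controls, where chance gives about 1 in 20. At 4 h, replicate 4 was high in ZIC1 (40.8 CPM) and CKM (39290 CPM) and low in S100A10 (112 CPM) and CCND2 (11.2 CPM). Replicate 1 was low in IL33 (11.7 CPM), ESAM (44.8 CPM) and RSAD2 (7.54 CPM). Among the controls, replicate 2 was high in LOXL4 (9.31 CPM), SOCS3 (38.3 CPM) and CCR1 (6.21 CPM), replicate 9 was high in SELP (5.52 CPM), and replicate 6 was low in NDUFB10 (198 CPM).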

How the results depend on the processing

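Against control, 1721 genes were called. The count was 745 with a replicate block over controls 1 to 4 and 4 h, 259 with the 5 library sets or with 4, 46 when tested against a 2-fold change, 654 without the 6 controls low in HOXC8, and 142 without them and with the 5 sets. Leaving out each library gave 608 (without 4 h replicate 2) to 1954 (without 4 h replicate 1). A replicate block over all 37 libraries gave 1628 calls, 1144 of them among the 1721. Against 8 h the count of 2950 became 0 with the 5 or the 4 sets, 59 against 2-fold, 0 without the 6 controls and with the sets, and 1610 (without 8 h replicate 1) to 3536 (without 8 h replicate 4) over single libraries, with 1927 without 4 h replicate 1 and 1938 without 8 h replicate 2. Against the later times the count of 3063 became 0 with the 5 sets, 2 with the 4, 1 against 2-fold, 0 in a fit of the libraries of the set low in NDUFAF8 alone (1446 at an unadjusted p under 0.05), 0 without the 6 controls and with the sets, and 1762 (without 4 h replicate 4) to 3290 (without 8 h replicate 4). Under RLE factors and DESeq2 all 140 called genes named kept their call, under limma-voom 116, without 4 h replicate 2 88, and with the 5 sets 49.

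Signs turned for ND4L (2.07) with the 5 sets (-0.24), the 4 sets (-0.28), without 4 h replicate 3 (-0.031, the highest without a single library being 2.43, without 4 h replicate 2) and without the 6 controls with the sets (-0.20). Without the 6 controls the log2 difference was 0.46 for MYOZ2, 0.20 for MYH7B, 0.37 for MYL2, 0.25 for MYOM3 and 0.23 for ESRRB. It was 0.64 for ESAM and 8.22 for HOXA10, whose remaining controls are all at 0 so that this value is no bound. With the 5 sets as well it was -0.12 for TNNI2, -0.36 for TNNT3, -0.36 for MYL1, 0.18 for MYOZ2, 0.051 for MYH7B, 0.29 for ESRRB, -0.13 for NRIP1, 1.02 for ESAM and 0.57 for KCNC1. The cause was not tested. Depth limits genes under about 1 CPM, where 3 counts are 0.175 to 0.369 CPM.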
